A study of Atriplex lentiformis with 9 samples.

Results

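The roots of 8 plants of Atriplex lentiformis (quailbush, a saltbush shrub that tolerates mine waste) were ordered by the lead they held, and the root RNA-seq value of each gene was compared with that order. The root lead content given in the labels ran from 10 to 70 ug/g, a 7-fold range. The 8 libraries were all of the 9 deposited except the file titled TC10 plant 5, whose 4995 values repeat those of TC15 plant 6, so the lead label of TC10 plant 5 has no expression values of its own here. Each gene was fitted by a slope against log2 root lead over the 8 plants, and again over 7 plants without TC15 plant 2, the root with least lead. No gene passed the main test in either fit, and the values below show how far single plants and the whole order carry each slope.

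The plants had grown for 11 weeks in mine tailings mixed with compost at 10% (TC10, 2 libraries), 15% (TC15, 3 libraries) or 20% (TC20, 3 libraries). All groups grew in tailings, so none of these roots is an unexposed control. The labels name separate plants, so the tests measure the spread between plants. Values are normalised reads of whole roots. In such bulk samples, fewer cells of a type and less RNA per cell cannot be told apart. Entries carry the names of Arabidopsis proteins and stand for quailbush transcripts matched to them, so close paralogs are uncertain and roles below are those known in Arabidopsis.

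Lead has no known use in plants. Most of what a root takes up is held in the cell wall, bound by pectin, or precipitated in the apoplast, and little crosses the endodermis, the cell layer with the Casparian strip, to reach the shoot. Lead ions can enter root cells through calcium-permeable channels. Plants counter them by chelation with glutathione-derived peptides and organic acids. Pumps of the ABC and P-type ATPase families also move metals out of the cytosol or into the vacuole.

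In order of root lead, the plants were TC15 plant 2 (10 ug/g), TC20 plant 3 (31), TC15 plant 6 (37), TC20 plant 9 (38), TC10 plant 4 (52), TC15 plant 10 (56), TC20 plant 5 (59) and TC10 plant 2 (70). Per-plant values below follow this order. Lead ran from 52 to 70 ug/g in TC10, from 10 to 56 in TC15 and from 31 to 59 in TC20, so that both TC10 roots were among the 4 with most lead. It averaged 61 ± 12.7 ug/g in TC10 (SD, n = 2), 34.3 ± 23.1 in TC15 (n = 3) and 42.7 ± 14.6 in TC20 (n = 3), and an exact permutation F test of lead across treatments, over 560 allocations, gave p = 0.411. TC15 plant 2 lay far below the rest. It carried a leverage of 0.825 on the slope, where 1 would mean that a single plant fixes the line, against 0.125 to 0.256 for the other 7. Without it the range of lead was 2.26-fold.

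Root arsenic was lowest in the root with least lead. In the same order, arsenic was 36, 65, 117, 107, 171, 216, 105 and 129 ug/g. Pearson r on log2 values was 0.867 (exact permutation p = 0.00910, adjusted over 6 plant measures 0.0546) and Spearman rho 0.619 (exact permutation p = 0.115, adjusted 0.690), so neither passed 0.05 after adjustment. With TC15 plant 2 and TC10 plant 2 left out, which lie farthest from the median lead, r was 0.721 (exact permutation p = 0.117). Without TC15 plant 2 alone it was 0.620 (exact permutation p = 0.142), and without TC10 plant 2 alone 0.888 (exact permutation p = 0.00774, adjusted 0.0464), so the relation rests on TC15 plant 2. When each value was taken relative to its treatment mean, r was 0.921 (approximate permutation p = 0.00382, adjusted 0.0167).

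Root zinc was 373, 215, 565, 174, 637, 1075, 277 and 491 ug/g in the same order, with r of 0.269 (exact permutation p = 0.539, adjusted 0.874) and rho of 0.286 (exact permutation p = 0.501). Within treatments r was 0.820 (approximate permutation p = 0.0166, adjusted 0.0333), where the root with most lead held more zinc than the root with least in TC15 and TC20 but not in TC10. The stress score, whose scale the labels do not explain, was 3, 2, 4, 2, 2, 4, 3 and 2. Its r with lead was -0.08 across the 8 plants (exact permutation p = 0.874) and 0.867 within treatments (approximate permutation p = 0.00556, adjusted 0.0167). Height, branch number and longest branch gave r of -0.46, 0.09 and -0.14 (exact permutation p of 0.253, 0.780 and 0.771). Without the same 2 plants, r was 0.522 for zinc, 0.311 for the stress score, 0.128 for height, 0.513 for branch number and 0.594 for the longest branch, with exact permutation p of at least 0.131.

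The size of the libraries also followed lead. Recovered reads per library ranged from 3030394 to 4752637. Over 8 plants their r with lead was 0.226 (exact permutation p = 0.522) and rho was 0.738 (exact permutation p = 0.0458). Over the 7 plants without TC15 plant 2, r was 0.779 (exact permutation p = 0.0276) and rho 0.964 (exact permutation p = 0.00278). Library size therefore moves with lead in the 7-plant fit. Its part in the 7-plant slopes was not tested beyond a fit with reads as a covariate, whose slopes are given after them. The relation was examined after the data had been seen, outside the adjustment over the 6 measures.

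**Figure D1:**
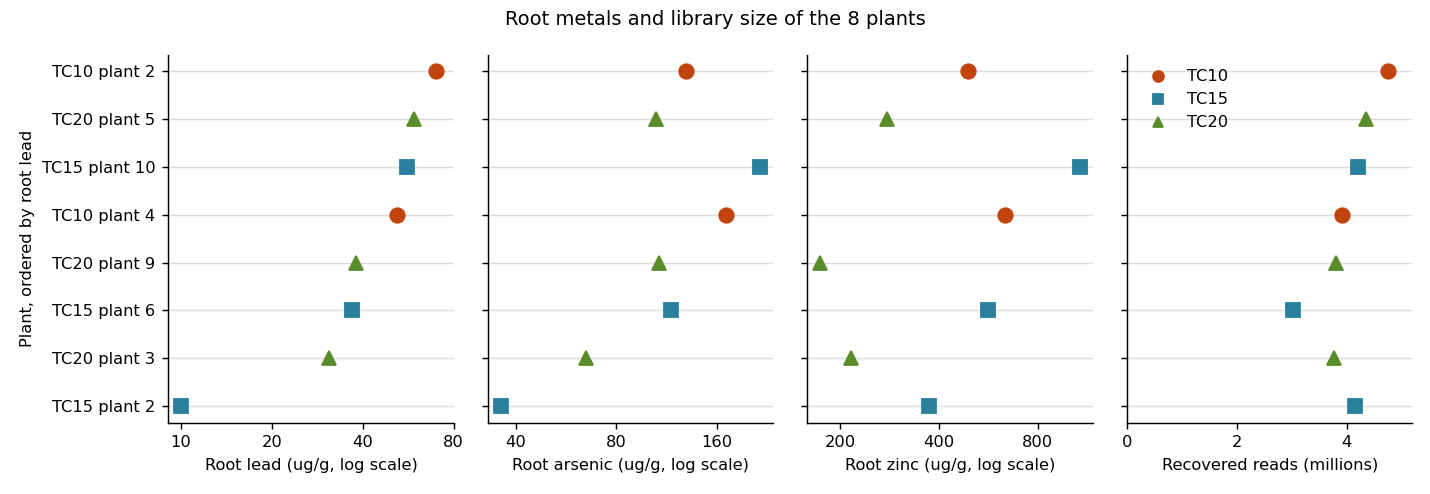
Root lead, arsenic and zinc (ug/g, log axes) and recovered reads of the 8 plants, 1 point per plant, ordered from least to most lead. TC15 plant 2 stands apart at 10 ug/g lead and 36 ug/g arsenic, and the other 7 plants lie between 31 and 70 ug/g lead.

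The labelled tissue was checked against few markers. Of 9 entries listed as root markers, 5 were abundant enough to be tested (MYB36, SHR, SKOR, PHO1 and PER3), with a summed value of 1956 to 4357 in the 4 roots with less lead and 2200 to 6602 in the 4 with more. SCR, COBL9, PHT11 and PHT14 were listed at low values and not tested. The 4 entries of green tissue were low throughout: their 3 tested members CB4B, LHCA6 and PSAK summed to 32.6 to 78.4 in the 4 roots with less lead and 50.7 to 174 in the 4 with more, with TC15 plant 10 and TC10 plant 2 highest, and none of them is at 0. Their slopes on log2 root lead were positive in 3 of 3 in both fits, with a median of 0.17 over 8 plants and 1.15 over 7, where 1 had an unadjusted limma p under 0.05. Their part in the slopes below was not tested.

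Of 5164 entries, 4801 reached a value of 10 in 2 or more libraries and were tested. With limma on log2(value + 1), 0 entries passed an adjusted p of 0.05 over 8 plants, and 330 (6.87%) had an unadjusted p under 0.05, of which 180 (3.75%) were higher and 150 (3.12%) lower with more lead. On recovered reads, the edgeR quasi-likelihood test called 2 entries (0.0417%), limma-voom 4 (0.0833%) and DESeq2 43 of 5063 (0.849%), with 25 higher (0.494%) and 18 lower (0.356%). Over 7 plants, limma called 0 with 254 (5.29%) under an unadjusted p of 0.05 (97 or 2.02% higher, 157 or 3.27% lower), edgeR and limma-voom called 0 (278 and 248 at unadjusted p), and DESeq2 called 17 of 5162 (0.329%), with 4 higher (0.0775%) and 13 lower (0.252%). The DESeq2 calls of the 2 fits shared FH6 and PGL3, 4.65% of the 8-plant calls and 11.8% of the 7-plant calls. With a plant left out in turn, limma called 2 entries without TC10 plant 2 (DTX43 and PER64, with 524 at an unadjusted p under 0.05), 1 without TC20 plant 3 (M030), 1 without TC20 plant 5 (P2C53) and 0 without any of the others. PER64 and P2C53 are named after their values were seen. A slope below is the log2 change per doubling of root lead. Since no entry passed limma, slopes are given as measured, with their standard error.

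The slope with the smallest p over 8 plants belonged to IDD3, the zinc finger factor MAGPIE that helps set the fate of the root ground tissue. Its values were 1495, 845, 658, 764, 575, 586, 537 and 527 normalised reads. They were highest in the root with least lead and lowest in the root with most, and the 4 roots with less lead did not overlap the 4 with more (941 ± 378 against 556 ± 28.7, SD, n = 4 each). The slope was -0.56 (SE 0.063, limma adjusted p = 0.0607) over 8 plants and -0.58 (SE 0.15, adjusted p = 0.844) over 7. It passed edgeR (adjusted p = 0.0267), limma-voom and DESeq2 (adjusted p = 1.8e-15) in the 8-plant fit. Of the 7 pairs of plants that share a treatment, the plant with more lead had less IDD3 in 7. Plants of TC15 and TC20 enter several of these pairs. Entries named by their p here and below were chosen on these same plants, so their pair counts and splits are no separate support. The share of all entries with such pair counts was not determined.

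DTX43 came next. It is the Arabidopsis citrate exporter FRD3, which releases citrate into the xylem and keeps iron mobile on its way to the shoot. Its values were 26.1, 179, 161, 138, 294, 260.2, 407 and 240.1 normalised reads. TC15 plant 2 lay far below the rest, the 4 roots with more lead were all above the 4 with less, and the mean ratio between them was 2.38-fold. The slope was 1.28 (SE 0.16, limma adjusted p = 0.0707), and 0.93 (SE 0.35, adjusted p = 0.867) without TC15 plant 2. DESeq2 called it over 8 plants (adjusted p = 1.2e-07) and not over 7 (adjusted p = 0.471). Leaving out TC10 plant 2 gave a slope of 1.41 with a limma adjusted p of 0.0453.

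The 8 entries with the smallest p among those lower with more lead also hold LYK4, BH096, CCD11, LPAAT, M030, CCMC and PGL3. LYK4, a LysM receptor kinase that takes part in chitin perception, had 943, 397, 484, 356, 308, 356, 265 and 305 normalised reads. BH096, a bHLH transcription factor, had 2941, 1630.2, 1363, 990.2, 807, 1137, 889 and 549.8. CCD11, the D-type cyclin CYCD1;1 of cell cycle entry, had 419.8, 167, 192, 102, 101.1, 123, 97.9 and 90.5. In all of these the root with least lead was highest by a clear margin, and the plant with more lead had the lower value in each of the 7 pairs within a treatment. Their slopes were -0.61 (SE 0.092), -0.76 (SE 0.12) and -0.79 (SE 0.13), each with a limma adjusted p of 0.140. Without TC15 plant 2 they were -0.50, -1.02 and -0.73, with limma adjusted p of 0.927, 0.844 and 0.910. LYK4 did not overlap between the 4 roots with less and the 4 with more lead, while BH096 and CCD11 did. LPAAT, named after a lysophosphatidic acid acyltransferase, was at 129.7, 48.6, 31.9, 23.9, 21.2, 14.1, 21.9 and 21.0 and did not overlap either, with a slope of -1.04 (SE 0.18, limma adjusted p = 0.177).

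M030 and CCMC had a single root far above the rest. M030, an uncharacterised protein of the mitochondrial genome, had 9046, 568, 1142, 824, 962, 482, 399.5 and 495 normalised reads, so that TC15 plant 2 lay far above the other 7. CCMC, a mitochondrial protein of cytochrome c maturation, had 199, 34.4, 39.3, 14.1, 30.8, 17.6, 17.5 and 12.4. Slopes over 8 plants were -1.49 (SE 0.23) and -1.31 (SE 0.23), with limma adjusted p of 0.140 and 0.177. Over 7 plants they were -0.69 (SE 0.44) and -0.94 (SE 0.57), with limma adjusted p of 0.951 and 0.944. With recovered reads as a covariate the 7-plant slope of M030 turned positive, at 0.38, and that of CCMC was -0.091. Without TC20 plant 3 the slope of M030 was -1.57 with a limma adjusted p of 0.0415, and edgeR called it over all 8 plants (adjusted p = 0.0340).

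The same root was high in other transcripts of the mitochondrial genome. Of 12 entries named after proteins that the Arabidopsis mitochondrial genome encodes, 11 were highest in TC15 plant 2. The list was made after these values were seen and counts CCMC again. The share of all entries that were highest in this root was not determined. Of the 12, 8 were tested. CCMB, CCMF1, CCMF2 and YMF16, all among the 11, were too low, at 15.9, 6.53, 6.53 and 23.3 in TC15 plant 2. NDUS2, a subunit of respiratory complex I, had 161, 15.2, 40.5, 27.1, 40.5, 7.94, 17.5 and 10.5 normalised reads. COX3, of cytochrome c oxidase, had 124, 11.1, 27.0, 22.8, 38.5, 7.94, 10.5 and 14.3. NU6M, a further complex I subunit, had 139.9, 7.09, 22.1, 14.1, 18.3, 9.70, 10.5 and 21.0. TC15 plant 2 was 3.98, 3.22 and 6.33 times the next highest root in these 3. RT04, a ribosomal protein and the most abundant of the 12, was the exception at 692, 815, 676, 1024, 703, 718, 868 and 496. The 8 tested members, CCMC among them, had a median slope of -1.04 over 8 plants and -0.31 over 7. In the 8-plant fit 6 of 8 were lower at an unadjusted limma p under 0.05 (3.12% of all entries), against 0 of 8 in the 7-plant fit (3.27% of all entries). The part of this library in the other 8-plant slopes was not tested beyond the 7-plant fit.

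ACOX4, KCS4 and TKPR1 follow DTX43 among the entries higher with more lead, with smaller slopes. ACOX4, a peroxisomal acyl-CoA oxidase of fatty acid breakdown, had 478, 763, 729.6, 771, 1009.6, 950.1, 914 and 913 normalised reads. KCS4, a ketoacyl-CoA synthase of very-long-chain fatty acid elongation, had 300.4, 545, 601, 555, 651, 833, 707 and 631. TKPR1, a tetraketide pyrone reductase known from pollen wall synthesis, had 751, 1178, 1258, 1180.2, 1413, 1289, 1337 and 1473. In each, the 4 roots with more lead were all above the 4 with less, and TC15 plant 2 was lowest. For TKPR1 the plant with more lead was the higher in 7 of 7 pairs within treatments. Slopes were 0.37 (SE 0.066), 0.46 (SE 0.081) and 0.33 (SE 0.06), each with a limma adjusted p of 0.177. Over 7 plants they were 0.35, 0.34 and 0.25, with limma adjusted p of 0.927, 0.936 and 0.936. DESeq2 called all 3 over 8 plants (adjusted p of 3.8e-05, 3.9e-04 and 3.0e-06) and none of them over 7.

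SP1L5, SUI11, CYSD2 and AHK1 complete the 8 entries with the smallest p in that direction. SP1L5, a SPIRAL1-like protein that binds cortical microtubules, ran from 32.7 in TC15 plant 2 to 319 in TC10 plant 2 (slope 1.12, SE 0.21, limma adjusted p = 0.227). SUI11, a translation initiation factor of the SUI1 family, ran from 82.1 to 667 in the same 2 roots (slope 0.93, SE 0.19, limma adjusted p = 0.335). CYSD2, of the cysteine synthase family, ran from 5.597 in TC15 plant 2 to 43.7 in TC20 plant 5 (slope 0.89, SE 0.19, limma adjusted p = 0.390). The 3 entries overlapped between the 4 roots with less and the 4 with more lead.

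**Figure D2:**
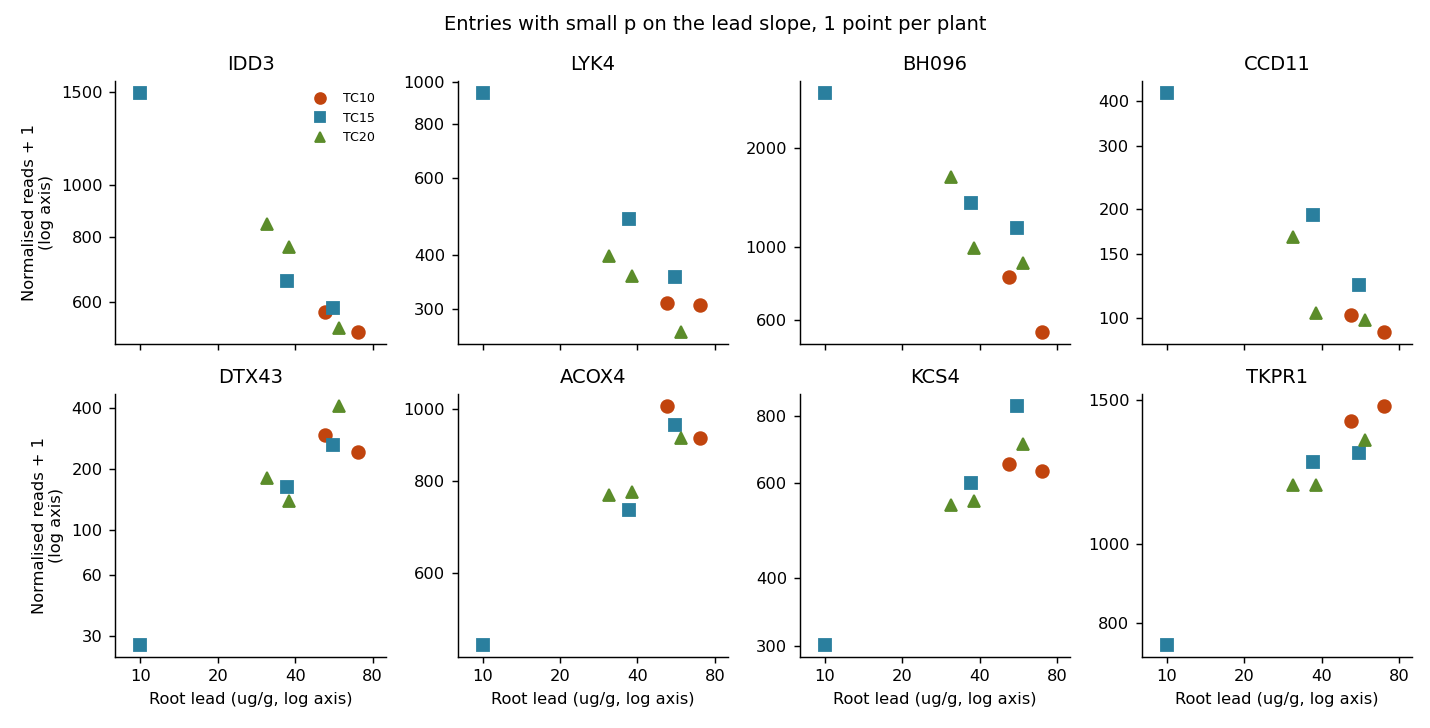
Normalised reads + 1 (log axes, with different ranges) against root lead (ug/g, log axis) for 8 of the entries with the smallest p over 8 plants, 1 point per plant, with treatments as symbols. In each panel TC15 plant 2, at 10 ug/g, is the extreme point, and the other 7 plants keep the direction of the slope over a narrower range.

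Some entries kept their direction among the 7 roots with 31 to 70 ug/g, IDD3, BH096, PGL3 and AHK1 among them. In both fits, 67 entries (1.4%) had an unadjusted limma p under 0.05 with the same sign, 26 higher (0.542%) and 41 lower (0.854%) with more lead. These fits share 7 plants, so the count is no independent repeat.

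PLY18, a pectate lyase that cuts wall pectin, had the smallest p over 7 plants. Its values were 542, 566, 463, 442, 203, 121, 167 and 93.4 normalised reads. The 4 roots with less lead, TC15 plant 2 among them, lay between 442 and 566 and the 4 with more between 93.4 and 203, a mean ratio of 3.44-fold. The slope was -2.34 (SE 0.25, limma adjusted p = 0.0821) over 7 plants and -0.89 (SE 0.27, limma adjusted p = 0.594) over 8. DESeq2 called it over 7 plants (adjusted p = 1.4e-12) but not over 8 (adjusted p = 0.0840). With recovered reads as a covariate its slope without TC15 plant 2 was -2.15, and the unadjusted p in that limma fit was 0.00154.

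FH6 and EXOL3 followed the same pattern. FH6, a formin that nucleates actin filaments, had 1984, 1379, 1519, 1407, 1008, 936, 707 and 585 normalised reads. EXOL3, of the EXORDIUM family of wall-associated growth proteins, had 3036, 2392, 2479, 3128, 1246, 894, 1221 and 972. Neither overlapped between the 4 roots with less and the 4 with more lead, and TC15 plant 2 was highest in FH6 but not in EXOL3. Slopes over 7 plants were -1.16 (SE 0.20, limma adjusted p = 0.640) and -1.52 (SE 0.30, limma adjusted p = 0.732). PGL3, named among the smallest p over 8 plants, had 2595, 1325, 1915, 1244, 949.8, 865, 638 and 538 and 7-plant slope -1.32 (SE 0.27, limma adjusted p = 0.732). FH6 and PGL3 were called by DESeq2 in both fits, with adjusted p of 0.0190 and 0.00282 over 8 plants and 7.5e-04 and 0.0139 over 7.

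Of entries higher with lead in both fits, AHK1, a histidine kinase that senses osmotic change, had 591, 1268, 770.1, 1363, 3246, 2952, 2749.6 and 2798 normalised reads. GASA1, a small gibberellin-regulated peptide, had 269, 529.9, 285, 631, 1908, 2042, 1754 and 1313. SLAH1, a subunit that helps anion channels of the stele load chloride into the xylem, had 13.1, 31.4, 23.3, 27.1, 65.5, 63.5, 44.6 and 83.8. In all 3, each of the 4 roots with more lead lay above each of the 4 with less, with mean ratios of 2.94, 4.09 and 2.71-fold. Slopes over 8 plants were 0.92 (SE 0.20), 1.08 (SE 0.29) and 0.88 (SE 0.20), with limma adjusted p of 0.393, 0.542 and 0.433. Over 7 plants they were 1.56, 2.07 and 1.41, each with a limma adjusted p of 0.844.

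CRK15, CNG14 and NAC98 fill the same set. CRK15, a cysteine-rich receptor kinase, ran from 279.9 to 429.9 in the 4 roots with less lead and from 419 to 589 in the 4 with more. CNG14, the root calcium channel CNGC14 that acts in the response to gravity, ran from 306 to 642 and from 515 to 1319. NAC98, the organ boundary factor CUC2, ran from 333 to 633 and from 586 to 1485, with TC10 plant 2 far above the rest. All 3 overlapped between the 4 roots with less and the 4 with more lead. Their slopes over 8 plants were 0.36, 0.64 and 0.55, each with a limma adjusted p of 0.594, and over 7 plants 0.72, 1.34 and 1.004.

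With recovered reads as a covariate, the count at unadjusted limma p under 0.05 went from 254 to 107 over 7 plants and from 330 to 284 over 8. Reads and lead had an r of 0.779 over the 7 plants, so this fit separates them poorly. A p that missed 0.05 in it does not tell the part of reads from that of lead. The 7-plant slopes of FH6, EXOL3 and PGL3 were then -0.79, -1.43 and -0.54, with unadjusted limma p of 0.0338, 0.0312 and 0.0762. Those of AHK1, GASA1 and SLAH1 were 0.84, 1.17 and 0.98, with unadjusted limma p of 0.194, 0.226 and 0.185, so these slopes became smaller and missed 0.05. For CRK15, CNG14 and NAC98 they were 0.98, 1.17 and 1.11, with unadjusted limma p of 0.0201, 0.121 and 0.112. For IDD3, DTX43, BH096, LYK4 and CCD11 the 7-plant slopes in this fit were -0.80, 0.85, -0.90, -0.14 and -0.27, with unadjusted limma p of 0.0132, 0.203, 0.0905, 0.682 and 0.578. ACOX4, KCS4 and TKPR1 were at 0.30, 0.44 and 0.31. Of the 24 entries named by p, 14 had an unadjusted limma p under 0.05 over 7 plants without the covariate and 5 with it (CRK15, EXOL3, FH6, IDD3 and PLY18), and M030 was the 1 that turned sign. Of 46 entries named below as list members, 6 had such a p without it and 1 with it (EXPA4), and the 7-plant slope of 11 turned sign, those of PGLR4, GUN24, VITH4, ALMT2 and NRAM6 among them. Over 8 plants the covariate turned the sign of ACBP4 alone among these entries.

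**Figure D3:**
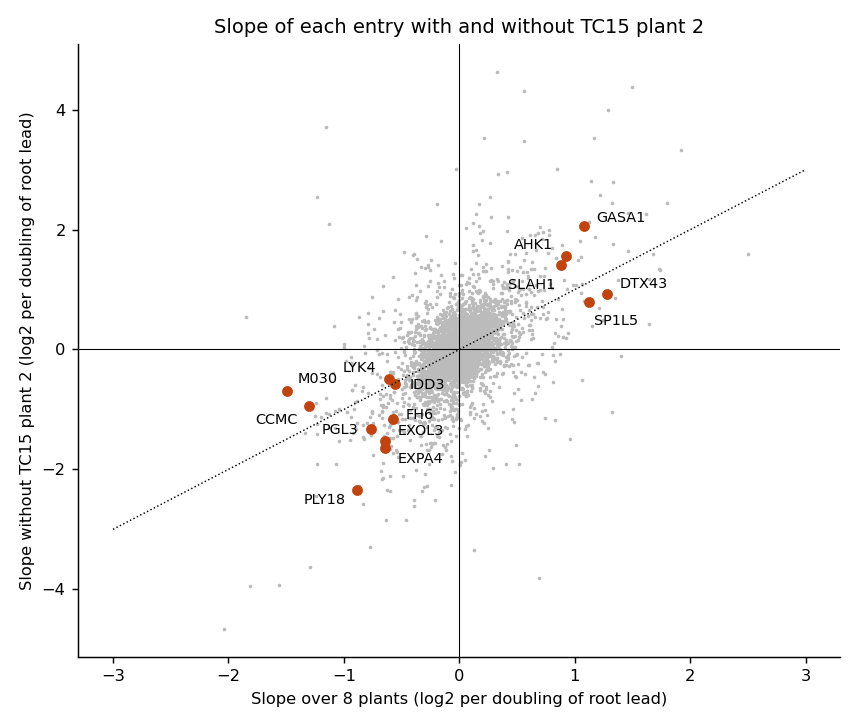
Slope of each of 4801 entries (log2 per doubling of root lead) over 8 plants (horizontal) and over 7 plants without TC15 plant 2 (vertical), with some entries named in the text in colour and a dotted line of equal slopes. M030 and CCMC lie nearer to 0 without TC15 plant 2, and PLY18, EXPA4, EXOL3 and GASA1 lie farther from 0.

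When the 8 roots were split at the middle of the order, 224 entries (4.67%) did not overlap between the 4 roots with 52 to 70 ug/g and the 4 with 10 to 38 ug/g. Of these, 93 (1.94%) were higher and 131 (2.73%) lower in the roots with more lead. limma called 0 of 4801 in this split, with 364 (7.58%) at an unadjusted p under 0.05 and a lowest adjusted p of 0.0768.

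Genes listed under lead transport and binding had mostly positive slopes of small size. The list holds the channel CNGC1, ABC and P-type ATPase pumps, Nramp transporters, the exchanger CAX3, PCR proteins, and acyl-CoA-binding proteins that bind lead. For several members, HMA2, HMA5, NRAM2 and PCR2 among them, the role given below concerns another metal. Several members, such as the Nramp transporters, also stand in the list of metal export below. Of 18 listed entries, 16 were tested, and 15 of them had a positive slope over 8 plants, with a median of 0.18, against 2386 of 4801 and a median of -0.0016 over all entries. Over 7 plants 13 of 16 were positive, with a median of 0.17. Over all entries 2526 of 4801 were then positive, with a median of 0.020. For the sign counts of this and the later lists, 49.7% of all entries were positive over 8 plants and 52.6% over 7. An unadjusted limma p under 0.05 was reached by 3 of 16 over 8 plants, all higher (3.75% of all entries), and by 0 of 16 over 7. NRAM1 and AB6C were too low to be tested.

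The 3 were NRAM2, NRAM3 and PCR2. NRAM3, an Nramp transporter that exports metals from the vacuole, had 147, 225, 201, 261, 396, 369.6, 310.4 and 293 normalised reads. NRAM2, an Nramp transporter of manganese, had 313, 533, 481, 476, 604, 583, 597 and 534. Neither overlapped between the 4 roots with less and the 4 with more lead, and TC15 plant 2 was lowest in both. PCR2, a PLAC8-family protein that exports zinc, had 23.3, 74.0, 87.2, 736, 175, 126, 305 and 761, with TC20 plant 9 and TC10 plant 2 far above the rest. Slopes over 8 plants were 0.46 (SE 0.11, limma adjusted p = 0.494) for NRAM3, 0.32 (SE 0.073, limma adjusted p = 0.435) for NRAM2 and 1.46 (SE 0.43, limma adjusted p = 0.594) for PCR2. DESeq2 called NRAM2 and NRAM3 over 8 plants (adjusted p of 0.0158 and 0.0430) and neither over 7 (adjusted p of 0.991 and 0.721).

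The more abundant members of the list differed among themselves. CNGC1, a calcium-permeable channel through which lead can enter Arabidopsis roots, had 1709, 1612, 1514, 1865, 1887, 1841, 1234 and 3742 normalised reads, with TC10 plant 2 alone high (slope 0.15, SE 0.18, limma adjusted p = 0.883), and its slope was -0.04 without that plant. ACBP4 and ACBP1, acyl-CoA-binding proteins, had slopes of 0.021 (SE 0.08) and 0.18 (SE 0.20). HMA2, a P-type ATPase that loads zinc into the xylem, ran from 373 to 693 in the 4 roots with less lead and from 529.8 to 1289 in the 4 with more (slope 0.41, SE 0.21, limma adjusted p = 0.712). HMA5, a copper ATPase, and NRAM6, a further Nramp, had slopes of 0.028 (SE 0.12) and 0.085 (SE 0.20). AB3C, an ABC transporter of the vacuolar ABCC group, was higher in each of the 4 roots with more lead (slope 0.34, SE 0.20, limma adjusted p = 0.739). AB40G, the pump PDR12 that confers lead resistance in Arabidopsis, named here after its values were seen, had 17.7, 33.4, 40.5, 30.4, 29.9, 26.5, 27.1 and 54.3 normalised reads (slope 0.34, SE 0.19, limma adjusted p = 0.732).

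Of 33 tested entries of metal export, vacuolar loading and long-distance transport, 19 had a positive slope in each fit, with medians of 0.049 over 8 plants and 0.13 over 7. Over 8 plants 6 were higher with an unadjusted limma p under 0.05 and 0 lower (3.75% and 3.12% of all entries). Over 7 plants 1 was higher and 0 lower (2.02% and 3.27% of all entries). Besides DTX43, NRAM2, NRAM3 and PCR2, the 6 hold VITH4, a vacuolar iron transporter homolog, at 17.7, 189, 68.8, 130.3, 248, 307, 454 and 120.1 (slope 1.35, SE 0.32, limma adjusted p = 0.442), and OPT7, an oligopeptide transporter, at 138, 276, 303, 173, 234, 275, 344 and 361. VITH4 was lowest in TC15 plant 2, and DESeq2 called it over 8 plants (adjusted p = 0.00321). The 3 tested ZIP-family entries had positive slopes over 8 plants (median 0.090), and 1 of 3 was positive over 7 (median -0.36), with none at an unadjusted limma p under 0.05 in either fit. Of 8 tested entries of iron storage and reduction, 3 were positive over 8 plants (median -0.035), with VITH4 the 1 higher at that p, and 5 over 7 (median 0.31).

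Among 26 tested organic acid and MATE transporters, 3 were higher over 8 plants at an unadjusted limma p under 0.05 (DTX43, DTX40 and ALMT2) and 0 lower (3.75% and 3.12% of all entries), with a median slope of 0.055. Over 7 plants 1 was higher and 3 were lower (2.02% and 3.27% of all entries), with a median of 0.13. ALMT2, of the malate channel family, ran from 278 to 3723 in the 4 roots with less lead and from 1342 to 2132 in the 4 with more. Of 50 tested ABC transporters, 34 had a positive slope over 8 plants (median 0.096), against 49.7% of all entries. At that p, 6 were higher and 1 lower (again against 3.75% and 3.12%). Over 7 plants 2 were higher and 1 lower (median 0.075). AB21B, AB11B and AB12B, which are 3 of the 6, had slopes of 0.32, 0.31 and 0.58, and AB8G, the lower member, -0.88 (SE 0.24, limma adjusted p = 0.542). Of 63 tested calcium channels, pumps, exchangers and sensors, 38 had a positive slope (median 0.060), 3 were higher and 0 lower, which is near the 3.75% of all entries that were higher, and over 7 plants 6 were higher and 2 lower (2.02% and 3.27% of all entries, median 0.090). CNG14, CNGC6 and GLR25, a glutamate receptor-like channel, were the 3, with slopes of 0.64, 0.27 and 0.72.

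Wall entries at that p were mostly lower. Of 32 tested entries of pectin synthesis and modification, 0 were higher and 6 lower over 8 plants at an unadjusted limma p under 0.05 (3.12% of all entries were lower), with 22 negative slopes and a median of -0.061. Over 7 plants 0 were higher and 3 lower (3.27% of all entries were lower), with a median of -0.13. The 6 were PLY18, PGLR4, QRT3, PME53, PLY15 and PAE9. PGLR4, a polygalacturonase, had 1077, 396, 882, 338, 328, 278, 334 and 294 normalised reads, and its 4 roots with more lead were all below the 4 with less. QRT3, a polygalacturonase that separates pollen in Arabidopsis, ran from 167 to 392 in the 4 roots with less lead and from 103 to 188 in the 4 with more. PME53, a pectin methylesterase, ran from 82.1 to 215 and from 49.1 to 101.5. Slopes were -0.69 (SE 0.18), -0.51 (SE 0.13) and -0.67 (SE 0.22), with limma adjusted p of 0.528, 0.542 and 0.626. The GAUT entries, named after enzymes that build homogalacturonan, were not among the 6. The summed value of the 32 entries overlapped, at 16540 to 19904 in the 4 roots with less lead and 13610 to 18223 in the 4 with more.

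Of 55 tested entries of cellulose, xyloglucan and wall loosening, 1 was higher and 7 lower over 8 plants at an unadjusted limma p under 0.05 (3.75% of all entries were higher and 3.12% lower), with a median slope of -0.044, and over 7 plants 0 were higher and 9 lower (2.02% and 3.27% of all entries), with a median of -0.14. The summed value of the 55 entries did not separate the roots. It was 84780 to 120913 in the 4 with less lead and 75039 to 194885 in the 4 with more, highest in TC10 plant 2. Expansins, which loosen walls during cell growth, were among the lower entries. EXPA4 had 3304, 3108, 2216, 3315, 1705, 1246, 1798 and 673 normalised reads. EXPA5 had 97.0, 86.1, 87.2, 84.7, 52.98, 28.2, 28.0 and 31.4. The 4 roots with more lead were all below the 4 with less in both, by 2.20-fold and 2.52-fold of the mean, and the root with least lead did not stand apart from the next 3. Slopes over 7 plants were -1.65 (SE 0.34, limma adjusted p = 0.732) and -1.64 (SE 0.37, limma adjusted p = 0.844), and over 8 plants -0.65 and -0.66 (limma adjusted p = 0.646 for each). DESeq2 called both over 7 plants (adjusted p of 0.0146 and 0.0401) and neither over 8. With recovered reads as a covariate the 7-plant slopes were -1.79 and -1.33 (unadjusted limma p of 0.0189 and 0.0709).

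GUN24, an endoglucanase, had 797, 213, 301, 89.0, 319.8, 183, 167 and 73.4 normalised reads and a slope of -0.93 (SE 0.28, limma adjusted p = 0.594), and FLA4, a wall arabinogalactan protein, a slope of -0.26 (SE 0.093, limma adjusted p = 0.668). The expansins were set apart from the wall list after EXPA4 and EXPA5 had been seen. Of 8 tested, 6 had a negative slope in each fit, with medians of -0.44 over 8 plants and -1.61 over 7. Among all entries, 50.3% were negative over 8 plants and 47.4% over 7. Their summed value did not separate the roots, at 6708 to 14198 in the 4 with less lead and 5765 to 11039.6 in the 4 with more. Named after their values were seen, GUN17, a further endoglucanase, had 703, 634, 990.0, 1009, 251, 239, 289 and 100.05 normalised reads, and EXPA1 had 80.2, 72.9, 65.1, 70.6, 43.3, 51.2, 21.9 and 20.0. Both had all 4 roots with more lead below the 4 with less. GUN17 had a 7-plant slope of -2.59 (SE 0.47, limma adjusted p = 0.640) and was called by DESeq2 over 7 plants (adjusted p = 1.5e-04). With recovered reads as a covariate that slope was -1.81, with an unadjusted limma p of 0.0420.

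**Figure D4:**
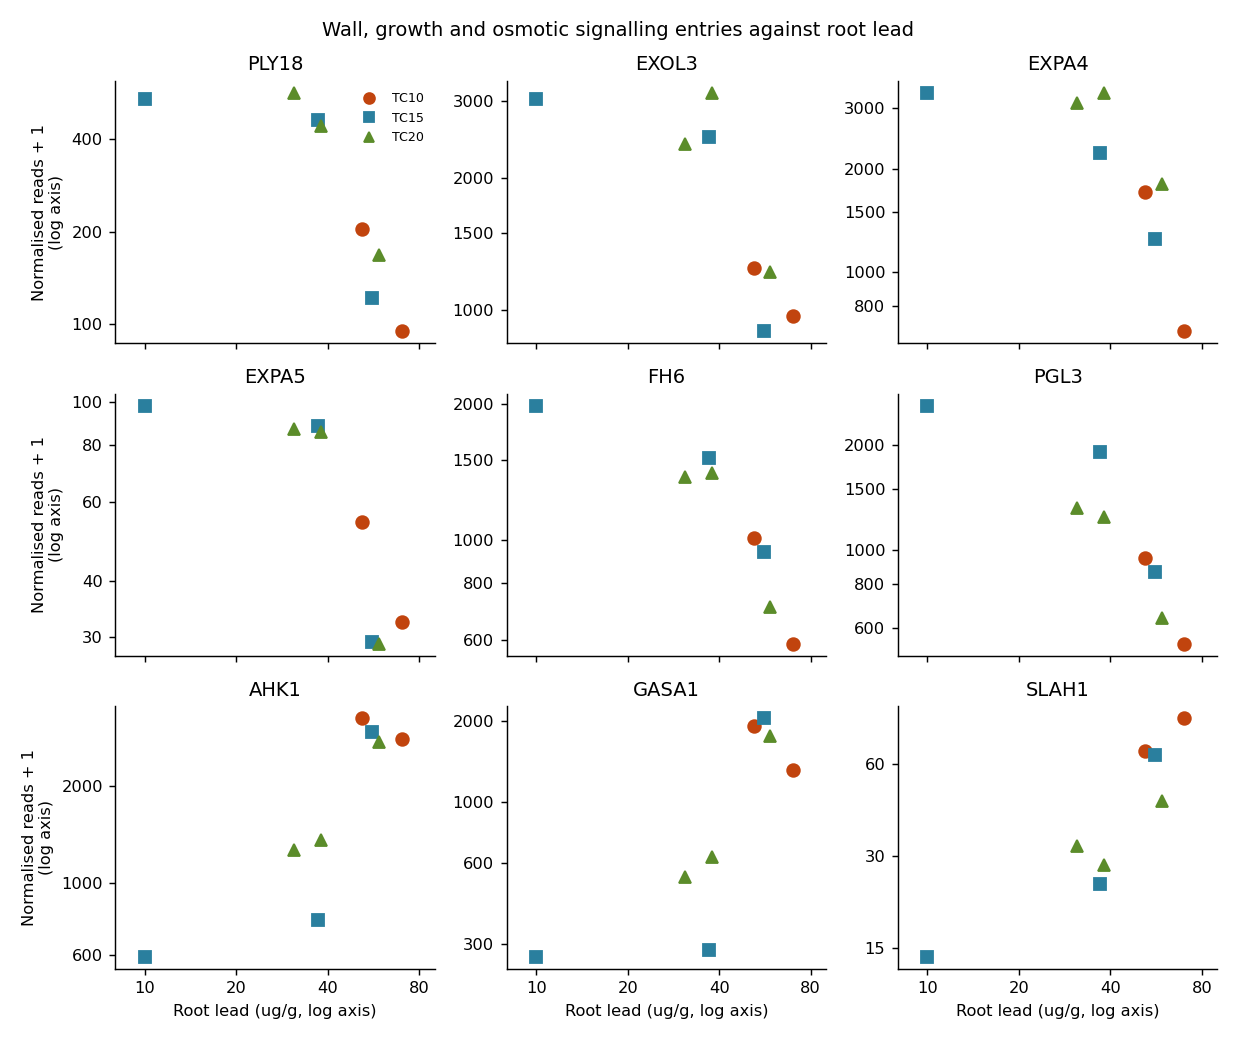
Normalised reads + 1 (log axes, with different ranges) against root lead (ug/g, log axis) for 6 entries that were lower and 3 that were higher in roots with more lead, 1 point per plant, with treatments as symbols. In each panel the 4 roots at 52 to 70 ug/g do not overlap the 4 at 10 to 38 ug/g, and for PLY18, EXOL3 and EXPA4 the root at 10 ug/g lies among the next 3.

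Barrier and lignin genes were mixed. Of all entries, 3.75% were higher and 3.12% lower over 8 plants at an unadjusted limma p under 0.05, and 2.02% and 3.27% over 7. Of 23 tested entries of lignin, suberin and the Casparian strip, 3 were higher and 1 lower over 8 plants at an unadjusted limma p under 0.05 (median 0.058), and 0 higher and 2 lower over 7 (median -0.069). The 3 were KCS4, MYB36, the factor that starts Casparian strip formation (slope 0.32, SE 0.14), and C86B1, a cytochrome P450 of suberin synthesis (slope 0.49, SE 0.16), with limma adjusted p of 0.177, 0.710 and 0.636. The slopes of MYB36 and C86B1 were 0.027 and -0.093 without TC15 plant 2. LAC6, a laccase, was the lower member at 108, 60.8, 51.6, 45.6, 33.7, 15.0, 24.5 and 29.5 normalised reads (slope -0.84, SE 0.20, limma adjusted p = 0.479), and its 4 roots with more lead were all below the 4 with less. Of 21 tested class III peroxidases, 2 were higher (PER45 and PER71) and 1 lower (PER17), with a median of 0.090 over 8 plants and -0.21 over 7, where 1 was higher and 1 lower.

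Stress and detoxification lists differed in their members at that p. The shares of all entries at that p were 3.75% higher and 3.12% lower over 8 plants, and 2.02% and 3.27% over 7. Positive slopes made up 49.7% of all entries over 8 plants and 52.6% over 7. Of 13 tested glutathione transferases, 10 had a positive slope over 8 plants (median 0.25) and 12 over 7 (median 0.36). GSTUP, GSTU9 and GSTUH were higher at an unadjusted limma p under 0.05, with slopes of 0.35, 0.54 and 0.62 and limma adjusted p of 0.594, 0.668 and 0.699, and over 7 plants 1 was. Of 21 tested antioxidant enzymes 0 were higher and 2 lower, GRXS9, a glutaredoxin, and PRX2E, a peroxiredoxin, with slopes of -0.95 and -0.26 and a median over the list of 0.0018, and over 7 plants 0 were on either side (median 0.12). Of 9 tested entries of sulfate uptake and assimilation 2 had a positive slope in each fit (medians -0.047 over 8 plants and -0.14 over 7), with 0 at that p. Heat shock proteins and factors had 16 of 24 positive slopes (median 0.14), with HSP22 and HS157 higher and HSFB4 lower, and over 7 plants 17 of 24 (median 0.26) with 1 higher.

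COR47, a dehydrin of cold and drought, had 1758, 8.11, 146, 39.1, 157, 11.5, 19.2 and 65.7 normalised reads, highest by far in TC15 plant 2, and its slope was -1.85 over 8 plants and 0.55 over 7. It was 1 of 2 lower members among 13 tested entries of salt, drought and abscisic acid response (median -0.33 over 8 plants and -0.044 over 7), with ABAH2, which breaks down abscisic acid (slope -0.42, SE 0.12, limma adjusted p = 0.594), and RD22, a dehydration-responsive protein, was the 1 higher (slope 0.52, SE 0.14, limma adjusted p = 0.542). Over 7 plants 0 of 13 were on either side. Defence entries had 6 of 19 positive slopes over 8 plants (median -0.089) and 11 over 7 (median 0.13), with 0 at that p in either fit. Of 25 tested phosphate entries 1 was higher and 0 lower (PHF1, slope 0.28, median of the list 0.046), and 1 higher and 2 lower over 7 (median 0.13). Among all entries, 3.75% were higher and 3.12% lower over 8 plants at that p, and 2.02% and 3.27% over 7. Their share with a positive slope was 49.7% over 8 plants and 52.6% over 7.

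Cytosolic ribosomal proteins had median slopes of opposite sign in the 2 fits. Over 8 plants 17 of 32 tested had a positive slope (median 0.025) and 1 was higher, RL71. Over 7 plants 3 of 32 were positive, against 52.6% of all entries, with a median of -0.36 against 0.020. In that fit 0 were higher and 1 lower at an unadjusted limma p under 0.05. At that p, 3.75% of all entries were higher and 3.12% lower over 8 plants, and 2.02% and 3.27% over 7. In order of root lead, the summed values of the ribosomal list were 52516, 60853, 65597, 89096, 56874, 59468, 61632 and 51298, so that TC20 plant 9 stood above the rest. Of 7 tested reference genes, 5 had a positive slope over 8 plants (median 0.22, with TBB3 higher) and 3 over 7 (median -5.8e-05).

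**Figure D5:**
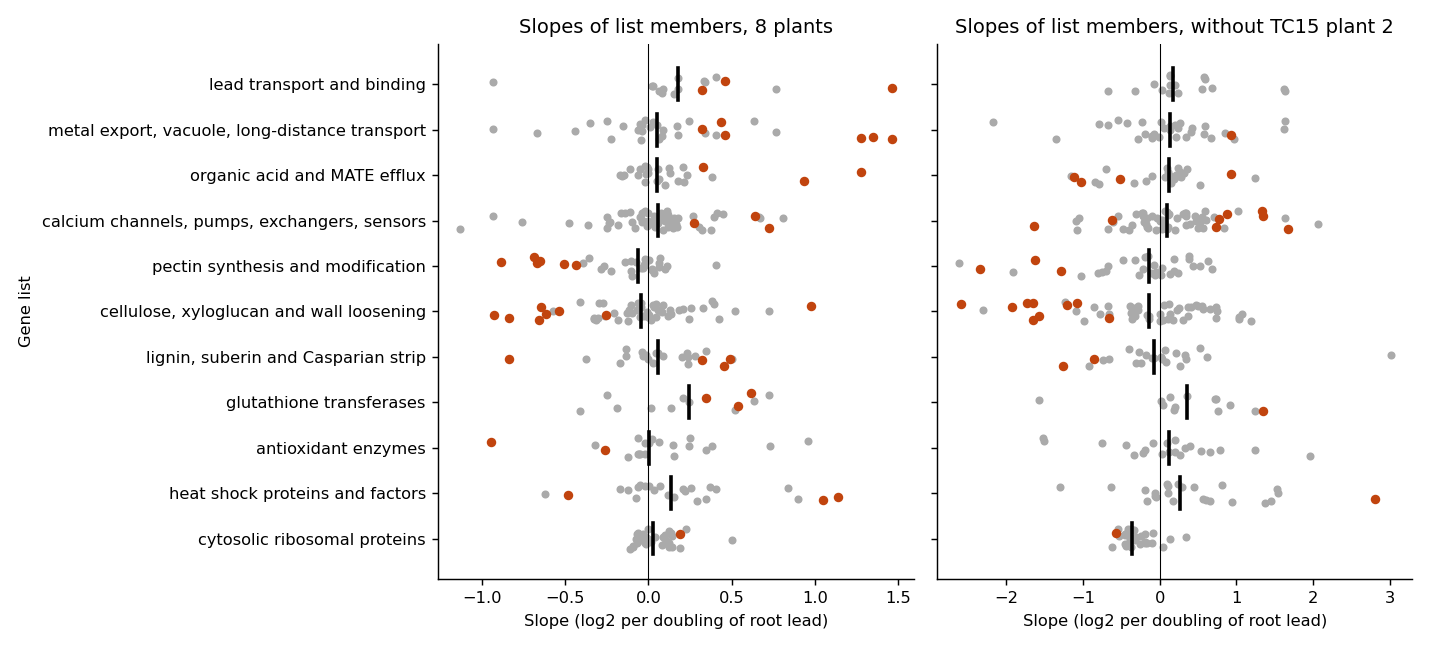
Slopes (log2 per doubling of root lead) of the tested members of 11 gene lists over 8 plants and, beside them, without TC15 plant 2, 1 point per entry, with the median as a bar and members with an unadjusted limma p under 0.05 in colour. The 15 positive slopes of lead transport and binding over 8 plants and the lower members of the 2 wall lists stand out, and the ribosomal list lies below 0 without TC15 plant 2.

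Root arsenic had an r of 0.867 with lead over the 8 plants, and its part in the slopes was not tested beyond a fit with it as a covariate. With log2 arsenic as a covariate, limma called 0 entries on the lead slope, with 170 at an unadjusted p under 0.05. On arsenic alone limma called 0 with 245 (5.1%) at that p, and on zinc alone 0 with 204 (4.25%). With treatment as a covariate, the slope within treatments called 0, with 227 at that p and a lowest limma adjusted p of 0.344.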

How the data were processed

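The labels' protocols describe stranded total RNA libraries from root RNA. The tools named per the submitters' processing notes are kallisto, DESeq2, FastQC and Trim Galore, with versions and transcript reference not given in the sources used here. Deposited values are normalised signal, 1 per entry and library, and 100% of the deposited values in each library were whole multiples of the value of 1 read within 0.001 of a read, so read counts were recovered by division. No file lists a 0, and absent entries were set to 0. The file of TC10 plant 5, identical to that of TC15 plant 6 in 4995 entries, was counted once, under TC15.

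The main test was limma 3.58.1 (empirical Bayes with trend, R 4.3.3) on log2(value + 1), which understates the change of low entries, as a slope on log2 root lead, two-sided, with Benjamini-Hochberg adjustment over the 4801 entries that reached 10 in 2 or more libraries and a threshold of 0.05. The recovered reads went into edgeR 4.0.16 (quasi-likelihood), limma-voom and DESeq2 1.42.0 (Wald test) as alternatives. DESeq2 took all entries, and the adjusted p-values it left undefined stayed so. The fits were tested on simulated data. Correlations of plant measures used exact permutation over all pairings in Python 3.11.15 with scipy 1.17.1, and a p within treatments, from shuffled deviations that are not independent, is approximate.

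The comparison, its members and the 22 gene lists were chosen with earlier results of these data known, and names that a pattern caught in error were removed from the lists before the fits. Lists are described by counts and medians. Named entries were those past the limma threshold (none), the 8 higher and 8 lower with the smallest p over 8 plants, the 6 higher and 6 lower with p under 0.05 in both fits, list members with p under 0.05 (at most 4 per list) and 8 members of the lead list by mean. A mean of at least 20 normalised reads was asked for in the choices by p, and names that are only a locus code were passed over. OPT7, PLY15 and PAE9 are named to complete the members of their lists at p under 0.05. Apart from these, the root and green tissue markers and untested list members, other entries named are said to be chosen after their values were seen.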

Additional observations from a re-analysis of the deposited data

How the results depend on the processing

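No paired analysis was possible because the plant numbers are shared by at most 1 plant between any 2 treatments among the 8 libraries. The 8-plant count of 0 with limma was 43 with DESeq2, 4 with limma-voom and 2 with edgeR, and ranged from 0 to 2 with 1 plant left out. It was 0 with TMM-scaled CPM, a pseudocount of 0.1, no filter, a filter of 50 in 4 libraries, lead not on the log scale or as ranks, treatment, arsenic, zinc or recovered reads as a covariate, the split into 4 roots against 4, and exact permutation of r or rho per entry (lowest adjusted p of 0.494 and 0.476). The covariate of recovered reads and the split were added after seeing the data. The 7-plant count of 0 was 17 with DESeq2, and 0 with each further plant left out and in the other settings. The DESeq2 calls rest on a model of read counts with few plants, and the difference between tools was not tested further.

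For the entries named by p, DESeq2 called 19 of the 24 slopes, edgeR 2 and leave-one-out fits 2 more calls (DTX43, M030), with signs kept in each. Leave-one-out slopes of list members changed sign for AB12B (-0.061 to 0.67), ACBP1 (-0.32 to 0.29), ACBP4 (-0.011 to 0.038), C86B1 (-0.093 to 0.56), CNGC1 (-0.037 to 0.56), COR47 (-2.19 to 0.55), HMA5 (-0.019 to 0.24), NRAM6 (-0.071 to 0.17) and TBB3 (-0.0084 to 0.29), and all other named slopes kept theirs.

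For plant measures, r of lead with arsenic was 0.931 with all 9 plants, 0.921 within treatments and 0.620 to 0.901 with 1 plant left out. Zinc reached 0.820 within treatments and 0.153 to 0.491 with 1 plant left out. Signs turned for height (0.128) and longest branch (0.594) without the 2 plants farthest from the median lead, for longest branch within treatments (0.158), and for the stress score in these settings (0.311 and 0.867). With 1 plant left out, r ranged from -0.76 to -0.070 for height, -0.024 to 0.51 for branch number, -0.27 to 0.17 for longest branch and -0.27 to 0.058 for the stress score. The F of lead across treatments was 1.01, and 0.444 to 2.45 with 1 plant left out. The cause of these shifts was not tested.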

Other observations

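TC10 plant 5 carried the most root lead of all 9 plants in the labels, 224 ug/g, with 458 ug/g arsenic and 1051 ug/g zinc. Its own expression values were not analysed here, so the gene slopes stop at 70 ug/g.

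Several entries outside the lists passed DESeq2 on the recovered reads and are named after their values were seen. TDR, the receptor of the TDIF peptide that keeps vascular stem cells dividing, had 5869.6, 4441, 4536, 4695, 3591, 3920.4, 3057 and 2827 normalised reads in order of root lead. It was highest in the root with least lead and lowest in the root with most (8-plant slope -0.34, SE 0.09, limma adjusted p = 0.534, DESeq2 adjusted p = 0.0264). SWET3, of the SWEET family of sugar transporters, had 313, 692, 463, 1094, 910.3, 1302, 1494 and 935, and the plant with more lead had the higher value in 7 of 7 pairs within treatments (slope 0.72, SE 0.17, limma adjusted p = 0.442, DESeq2 adjusted p = 0.0163). C83B1, a cytochrome P450 of indole glucosinolate synthesis in Arabidopsis, had 134, 675, 413, 631, 694, 1335, 2937 and 451, with TC20 plant 5 far above the rest (DESeq2 adjusted p = 0.0258). DESeq2 called none of TDR, SWET3 and C83B1 over 7 plants (adjusted p of 0.136, 0.799 and 0.838). Their 7-plant slopes were -0.61, 0.80 and 0.80. With recovered reads as a covariate they were -0.48, -0.014 and 0.0998, with unadjusted limma p of 0.163, 0.981 and 0.942.

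Over 7 plants, IRK, a receptor kinase that restrains cell division in the root endodermis, had 1179, 1284, 1207, 1191, 955, 804, 843 and 605 normalised reads, and GBF1, a G-box binding factor, had 1262, 1027, 1178, 1131, 1469, 1764, 1618 and 1987. Neither overlapped between the 4 roots with less and the 4 with more lead, and in both TC15 plant 2 lay close to the next 3. Their 7-plant slopes were -0.88 (SE 0.16) and 0.82 (SE 0.14), with a limma adjusted p of 0.640 for each and DESeq2 adjusted p of 3.7e-04 and 2.5e-05. With recovered reads as a covariate the unadjusted limma p was 0.0258 and 0.0135.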
